A study of Mus musculus with 9 samples.

Results

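Expression of 10 genes for enzymes that break down the branched chain amino acids valine, leucine and isoleucine was followed in mouse adipose tissue. The genes are Bcat2, Bckdha, Bckdhb, Dbt, Hibch, Hibadh, Mccc1, Pcca, Pccb and Aldh6a1. They were chosen by name, and all 10 were among the 3958 genes of the count table. RNA sequencing had been made of adipose tissue from male C57BL/6J mice, an inbred strain that gains fat on a fat-rich diet, at day 21, and 9 libraries fall into 3 groups of 3. The EA group (libraries 5, 7 and 8) received electroacupuncture, a current passed through acupuncture needles, and by the series design these mice were also on a high-fat diet. The other 6 libraries carry only the title prefixes CPX (4, 6 and 8) and MPX (2, 5 and 7). One of these prefixes stands for a normal diet and the other for a high-fat diet without needling, but the labels do not say which, so no difference is given a diet direction here. The fat depot, the age of the mice and the pooling of animals are not given in the labels, nor is it said that each library is a separate mouse. The p-values therefore measure the spread between these libraries.

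The branched chain amino acids share the first steps of their breakdown in mitochondria. The aminotransferase BCAT2 turns them into keto acids, and the branched chain keto acid dehydrogenase complex commits these to oxidation. Separate branches for valine, leucine and isoleucine then lead to acetyl, acetoacetate and propionyl units. Mature fat cells are known for a high capacity of this pathway and use its carbon for making fatty acids, and adipose expression of these enzymes is known to be lower in obese animals and people.

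Table totals ran from 12115183 to 14208853 counts per library, summed over the 3958 most abundant genes only, so they are not sequencing depths. Values are given as CPM, counts per 1000000 of these table totals after TMM scaling, and differences on the log2 scale. Single libraries held between 284 counts (Bckdhb in CPX 6) and 14020 counts (Aldh6a1 in CPX 4) of an enzyme gene. Counting error was therefore small beside the spread between libraries. A pair of CPX libraries stood apart. CPX 6 was lowest for all 14 adipocyte markers listed (mean -2.37 from the mean of the 9 libraries on the log2 scale) and highest for all 8 B cell markers in the table. In such bulk samples fewer fat cells and less RNA per fat cell cannot be told apart. CPX 4 was highest for all 10 mitochondrially encoded genes, and its TMM factor was 0.753 against 0.981 to 1.10 in the others. Markers that define fat cells were abundant in the tissue as a whole, since Adipoq, Plin1, Cidec and the other adipocyte markers summed to between 9095 CPM (CPX 6) and 100709 CPM (CPX 4). No marker listed for brown fat, skeletal muscle, epithelium or retina was among the genes of the table, and these were not analysed here.

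Since the enzyme genes moved together across libraries, as shown further on, the 250 bases before the start site of the genes were read for short motifs. Windows from RefSeq (GRCm38.p6) were matched for 9 of the 10 genes, not for Dbt, and searched on both strands. Bcat2, Bckdhb, Pcca and Aldh6a1 have several windows. A gene was counted if any of its windows matched, here and over all genes. CCAAT, the letters of the CCAAT box, occurred in 5 of the 9 (Bckdhb, Hibadh, Mccc1, Pcca and Aldh6a1), against 37.5% of 27025 genes. GGGCGG, the GC box, occurred in 5 of 9 (35.4% of all genes) and CCACCC, bound by KLF factors, in 3 of 9 (30.6%). None of the 9 held TCAAGGTCA (0.422% of all genes), CACGTG (6.86%), TGACGTCA (1.77%) or TATAAA (14.3%), the letters bound by estrogen-related receptors, E box factors, CREB and TATA-binding protein. None of these motifs is contained in another. A window is printed for each of 3 genes with several CCAAT matches and for Bcat2, whose windows hold none, for comparison. The printed windows run 5′ to 3′ in the direction of the gene, and capitals mark CCAAT or its reverse complement.
Bckdhb (chr9:83924887-83925136, plus strand): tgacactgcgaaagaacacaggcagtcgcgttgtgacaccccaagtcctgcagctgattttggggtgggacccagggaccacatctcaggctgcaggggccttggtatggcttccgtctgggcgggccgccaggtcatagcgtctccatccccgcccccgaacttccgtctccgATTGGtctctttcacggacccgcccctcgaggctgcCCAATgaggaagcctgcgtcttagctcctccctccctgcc
Mccc1 (chr3:36000679-36000928, minus strand): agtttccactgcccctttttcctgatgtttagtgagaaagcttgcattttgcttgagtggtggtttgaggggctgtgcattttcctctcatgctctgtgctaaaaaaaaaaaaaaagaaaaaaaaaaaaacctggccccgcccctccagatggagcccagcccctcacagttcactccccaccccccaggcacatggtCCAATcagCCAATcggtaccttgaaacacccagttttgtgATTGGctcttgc
Aldh6a1 (chr12:84451025-84451274, minus strand): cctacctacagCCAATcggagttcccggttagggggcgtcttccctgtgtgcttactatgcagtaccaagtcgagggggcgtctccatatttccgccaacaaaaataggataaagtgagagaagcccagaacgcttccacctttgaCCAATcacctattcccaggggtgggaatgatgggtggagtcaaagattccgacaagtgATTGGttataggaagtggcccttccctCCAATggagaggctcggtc
Bcat2 (chr7:45569903-45570152, plus strand): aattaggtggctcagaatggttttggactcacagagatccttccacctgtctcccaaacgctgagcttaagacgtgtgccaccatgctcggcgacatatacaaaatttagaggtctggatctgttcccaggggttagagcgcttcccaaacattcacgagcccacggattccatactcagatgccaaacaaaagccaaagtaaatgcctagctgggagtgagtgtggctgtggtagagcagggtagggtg
In the printed Bckdhb window, which is 63.2% G or C against a median of 52.4% over 32851 windows, the 2 matches begin 76 and 40 bases before the start site. Bckdhb's other window holds none. Mccc1 has 3 matches, at 52, 44 and 12 bases, and the printed window of Aldh6a1 has 4, at 239, 104, 46 and 19 bases. These are matches of letters and no measurement of binding.

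Levels between genes were compared per kilobase of the gene length in the table. Aldh6a1 was the most abundant of the 10, at 119.9 CPM per kilobase over the 9 libraries, followed by Pccb at 91.2 and Bcat2 at 72.1. The 3 subunit genes of the dehydrogenase complex lay close together at 43.8 (Bckdhb), 38.5 (Dbt) and 38.1 (Bckdha) CPM per kilobase. Hibch (29.6), Hibadh (29.1) and Pcca (27.4) were lower, and Mccc1 was lowest at 16.6 CPM per kilobase. Aldh6a1 and Pccb led in each group, except that Bcat2 was above Pccb in EA (82.6 against 81.1 CPM per kilobase). The order depends on the lengths used, from 1805 bases (Bckdhb) to 10952 (Mccc1). For Mccc1 and Hibadh (10179 bases) they count all annotated exonic bases, which can exceed a single transcript. By mean CPM, Hibadh and Mccc1 lay above Bckdha in each group (269, 193 and 78.5 CPM in MPX). The 10 genes together made up 0.077% (CPX 6) to 0.322% (CPX 4) of the counts in the table.

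**Figure D1:**
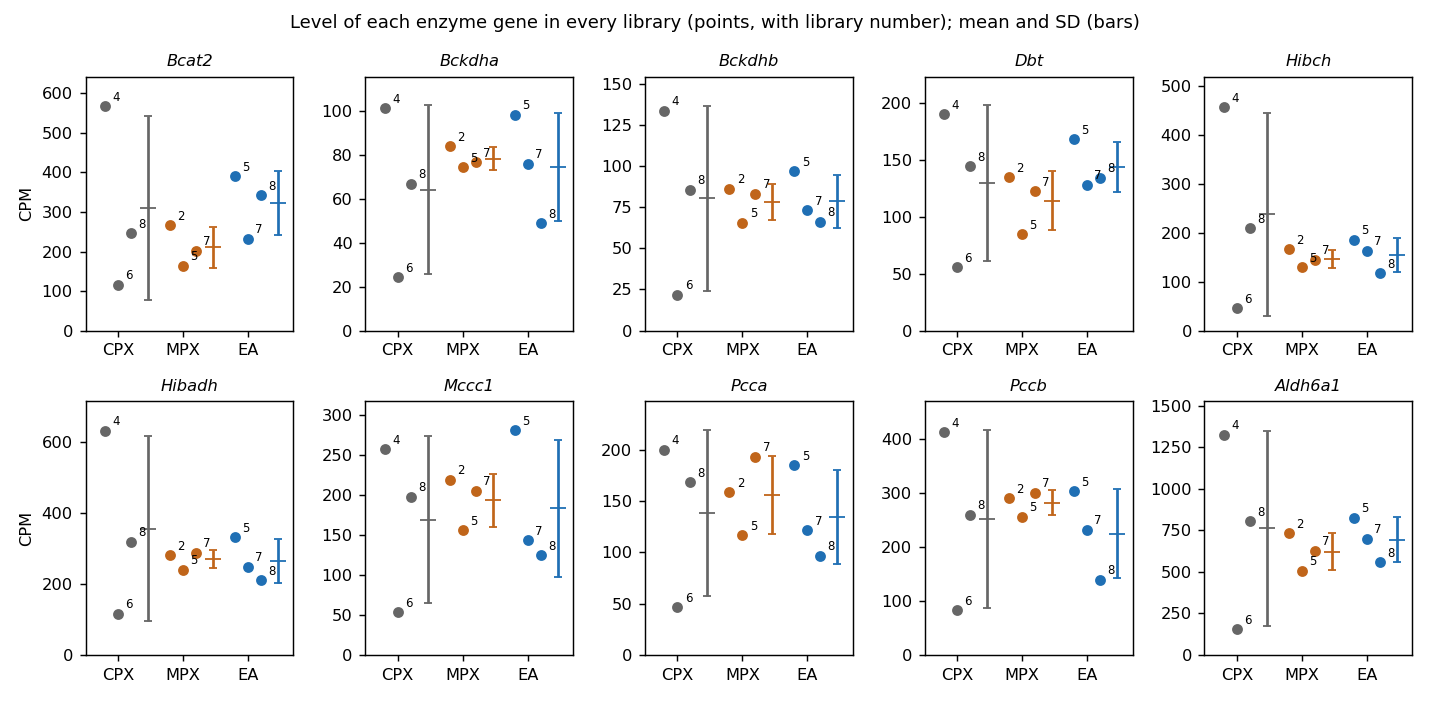
CPM of each of the 10 enzyme genes (vertical axes, linear from 0) in every library, with the library number beside each point and the mean and SD of each group of 3 as a bar. For every gene CPX 6 is the lowest library, and the 3 groups overlap.

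The entry step came first. Bcat2, the mitochondrial aminotransferase (ENSMUSG00000030826, chromosome 7, 45570153 to 45589711, plus strand, build mm10, protein coding), stood at 567 CPM in CPX 4, 117 in CPX 6 and 247 in CPX 8, 267, 164 and 202 CPM in MPX 2, 5 and 7, and 391, 233 and 343 CPM in EA 5, 7 and 8. The group means were 322 ± 81.4 CPM for EA, 211 ± 52.2 CPM for MPX and 310.2 ± 232 CPM for CPX (SD, n = 3 per group). EA 5 and EA 8 lay above all MPX libraries, but EA 7 lay below MPX 2, so the groups overlapped. EA was 1.53 times MPX in the fit, a log2 difference of 0.61 (SE 0.53, 95% interval -0.60 to 1.82), which did not pass edgeR's quasi-likelihood test (adjusted p = 0.775). This was the greatest of the 10 differences between EA and MPX. For MPX minus CPX the difference was -0.56 (SE 0.53) and for EA minus CPX 0.055 (SE 0.52). An antisense transcript shares 15.9% of the exonic bases of Bcat2 in GENCODE M21, and without a known strand setting their reads cannot be told apart.

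Next in the pathway is the dehydrogenase complex, whose decarboxylase subunits are encoded by Bckdha and Bckdhb and whose transacylase core by Dbt. Bckdha (chromosome 7, 25629946 to 25658981, minus strand) stood at 101 CPM in CPX 4, 24.3 in CPX 6 and 67.0 in CPX 8, 84.2, 74.5 and 76.7 CPM in MPX 2, 5 and 7, and 98.4, 76.1 and 49.1 CPM in EA 5, 7 and 8. MPX was the tightest group, and EA 8 was the lowest library after CPX 6. Of its exonic bases 61.7% also lie in exons of B3gnt8 on the other strand, so its value is uncertain if reads were counted without strand. Bckdhb (chromosome 9, 83925145 to 84124240, plus strand) stood at 134 CPM in CPX 4, 21.8 in CPX 6 and 85.5 in CPX 8, 86.1, 65.4 and 83.0 CPM in MPX 2, 5 and 7, and 96.7, 73.0 and 66.2 CPM in EA 5, 7 and 8. Its group means were nearly equal, 78.6 ± 16.03 CPM for EA, 78.2 ± 11.2 CPM for MPX and 80.3 ± 56.1 CPM for CPX. Dbt (chromosome 3, 116513070 to 116549981, plus strand) stood at 190.0 CPM in CPX 4, 55.4 in CPX 6 and 144 in CPX 8, 135, 84.8 and 122 CPM in MPX 2, 5 and 7, and 168, 128 and 134 CPM in EA 5, 7 and 8. EA 5 lay above all MPX libraries, and EA 7 and EA 8 lay within the MPX range. The log2 differences of Bckdhb were 0.0079 (SE 0.53) for EA minus MPX, -0.038 (SE 0.53) for MPX minus CPX and -0.03 (SE 0.53) for EA minus CPX. For Dbt the EA minus MPX difference was 0.33 (SE 0.41, edgeR adjusted p = 0.809), and for Bckdha it was -0.075 (SE 0.47, edgeR adjusted p = 0.966). None of the 3 passed in a comparison.

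A set of 3 genes serves the valine branch. Hibch encodes the hydrolase that frees 3-hydroxyisobutyrate from coenzyme A, Hibadh the dehydrogenase that oxidises it, and Aldh6a1 the methylmalonate semialdehyde dehydrogenase that yields propionyl-CoA. Hibch (chromosome 1, 52844929 to 52920986, plus strand) stood at 457 CPM in CPX 4, 45.7 in CPX 6 and 209 in CPX 8, 166, 129.7 and 145 CPM in MPX 2, 5 and 7, and 185, 163 and 117 CPM in EA 5, 7 and 8. CPX 4 held 9.999 times as much as CPX 6, the widest span of the 10 genes, while MPX and EA shared 1 range. The log2 differences of Hibch were 0.079 (SE 0.65) for EA minus MPX, -0.69 (SE 0.65) for MPX minus CPX and -0.61 (SE 0.65) for EA minus CPX. Hibadh (chromosome 6, 52546228 to 52640389, minus strand) stood at 631 CPM in CPX 4, 116 in CPX 6 and 319 in CPX 8, 281, 239.9 and 287 CPM in MPX 2, 5 and 7, and 331, 248 and 211 CPM in EA 5, 7 and 8. Its MPX and EA means, 269 ± 25.7 CPM and 263 ± 61.5 CPM, differed by less than either SD. Aldh6a1 (chromosome 12, 84430717 to 84451004, minus strand) stood at 1328 CPM in CPX 4, 156 in CPX 6 and 804 in CPX 8, 733, 506 and 629 CPM in MPX 2, 5 and 7, and 825, 701 and 558 CPM in EA 5, 7 and 8. Its CPX libraries spanned 8.50-fold, and all MPX and EA values lay inside that span. The log2 differences of Aldh6a1 were 0.16 (SE 0.63) for EA minus MPX, -0.29 (SE 0.63) for MPX minus CPX and -0.13 (SE 0.63) for EA minus CPX. Bbof1 on the other strand shares 18.6% of the exonic bases of Aldh6a1.

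The leucine branch is represented by Mccc1 (chromosome 3, 35959312 to 36000678, minus strand), the biotin-carrying subunit of methylcrotonyl-CoA carboxylase. It stood at 257 CPM in CPX 4, 53.1 in CPX 6 and 198 in CPX 8, 219, 156 and 205 CPM in MPX 2, 5 and 7, and 281, 143 and 125 CPM in EA 5, 7 and 8. It was the single gene of the 10 with its highest value outside CPX 4, in EA 5. The EA mean was 183 ± 85.2 CPM and the MPX mean 193 ± 33.2 CPM, a difference of -0.079 (SE 0.54), with EA 5 above and EA 7 and EA 8 below all MPX libraries. Propionyl-CoA, a product of valine and isoleucine, is carboxylated by an enzyme whose subunits are encoded by Pcca, which carries biotin, and Pccb. Pcca (chromosome 14, 122534324 to 122891100, plus strand) stood at 199.99 CPM in CPX 4, 46.6 in CPX 6 and 168 in CPX 8, 158, 116 and 193 CPM in MPX 2, 5 and 7, and 185, 121 and 96.6 CPM in EA 5, 7 and 8. Pccb (chromosome 9, 100982032 to 101034898, minus strand) stood at 412 CPM in CPX 4, 82.4 in CPX 6 and 260.0 in CPX 8, 290.0, 256 and 300.1 CPM in MPX 2, 5 and 7, and 303, 232 and 139 CPM in EA 5, 7 and 8. EA 8 was the second lowest library for both subunit genes, after CPX 6. Pccb had means of 225 ± 82.4 CPM for EA and 282 ± 23.1 CPM for MPX, the lowest of the EA minus MPX differences at -0.33 (SE 0.53, 95% interval -1.53 to 0.88, edgeR adjusted p = 0.846). The log2 differences of Pcca were -0.21 (SE 0.50) for EA minus MPX, 0.17 (SE 0.50) for MPX minus CPX and -0.042 (SE 0.50) for EA minus CPX.

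Between EA and MPX, then, the enzyme genes split evenly, with 5 positive and 5 negative differences (51.4% of all genes were positive) and a median of -0.012, beside 0.012 over all 3958 genes. By edgeR's test 0 of 10 had an adjusted p under 0.05 (0% of all genes) and 0 of 10 an unadjusted p under 0.05 (5.10% of all genes, 202 in number). DESeq2 called 0 of 10 (1.24% of all genes) and limma voom 0 of 10 (0% of all genes). The groups overlapped for all 10, while over all genes 21.5% had every EA library above every MPX library and 19.0% below. Each 95% interval included 0. The intervals reached from -1.53 (Pccb) to 1.82 (Bcat2), and they reached past a 2-fold decrease for 8 genes and past a 2-fold increase for 7. In counts simulated with the spread of these libraries the test recovered 13.4% of 2-fold and 70.1% of 4-fold changes between EA and MPX. Genes were drawn independently there, unlike in the libraries, so these shares may be too high for the real fit. In the real fit no gene had an edgeR adjusted p under 0.775, not even the 8 B cell markers with a median difference of 6.58. Most differences of 2-fold would have been missed, and 4-fold ones may have been missed too.

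**Figure D2:**
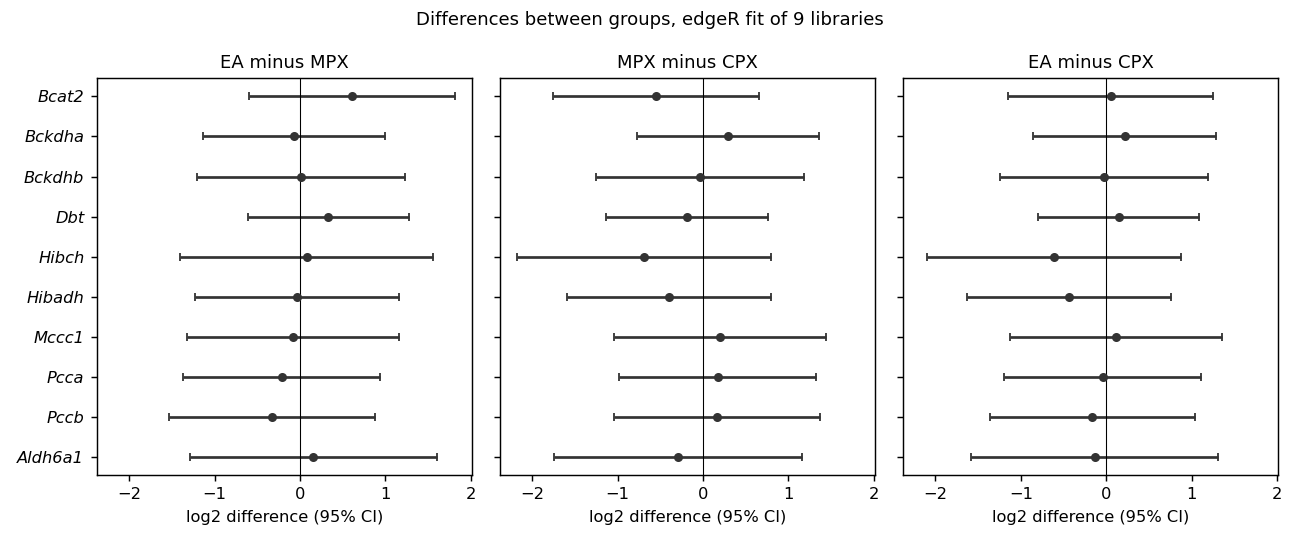
Log2 differences of the 10 enzyme genes (points) with 95% confidence intervals (bars) from the edgeR fit of 9 libraries, in 3 panels for EA minus MPX, MPX minus CPX and EA minus CPX. All 30 intervals include 0.

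MPX and CPX, the groups without electroacupuncture, differ in diet by the series design. Of the 10 enzyme genes 4 had positive and 6 negative differences for MPX minus CPX (40.7% of all genes were positive), with a median of -0.11 beside -0.11 over all genes. The extremes were Hibch at -0.69 (95% interval -2.18 to 0.79, edgeR adjusted p = 0.607) and Bckdha at 0.29 (95% interval -0.78 to 1.36, edgeR adjusted p = 0.764). EdgeR called 0 of 10 (0% of all genes), and 0 of 10 had an unadjusted p under 0.05 (13.2% of all genes, 522 in number). DESeq2 called 0 of 10 (5.10% of all genes) and limma voom 0 of 10 (0%). No gene had separate ranges, against 8.46% of all genes higher and 7.71% lower in MPX. The direction turned on single CPX libraries. Without CPX 4 all 10 differences were positive (median 0.48), and without CPX 6 all 10 were negative (median -0.52). For Hibch the difference was 0.23 without CPX 4 and -1.18 without CPX 6 (edgeR adjusted p = 0.311). Neither fit called an enzyme gene.

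**Figure D3:**
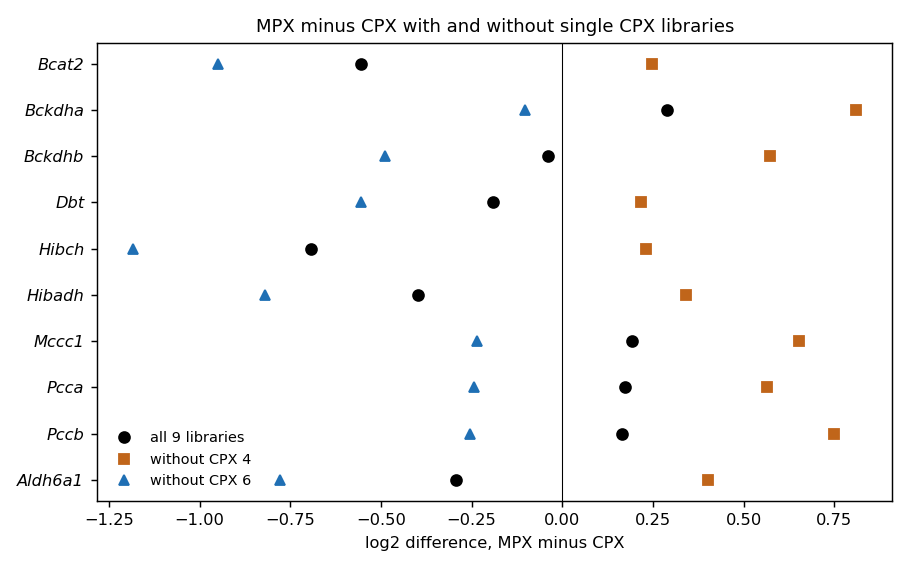
Log2 differences MPX minus CPX of the 10 enzyme genes (horizontal axis) in the fit of all 9 libraries (circles), without CPX 4 (squares) and without CPX 6 (triangles). The squares all lie above 0 and the triangles all below 0.

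EA minus CPX gave 4 positive and 6 negative differences (39.0% of all genes were positive), with a median of -0.036 beside -0.093 over all genes. Hibch was again lowest at -0.61 (95% interval -2.10 to 0.87) and Bckdha highest at 0.21; this comparison shares its CPX libraries with the one before. EdgeR, DESeq2 and limma voom each called 0 of 10 (0%, 0.127% and 0% of all genes), and 0 of 10 had an unadjusted edgeR p under 0.05 (2.96% of all genes, 117 in number). No gene had separate ranges, against 2.10% of all genes higher and 5.08% lower in EA. Without CPX 4 all 10 differences were positive (median 0.53) and without CPX 6 all 10 negative (median -0.48).

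What the 10 genes shared was their course over the libraries. All 10 were lowest in CPX 6 and 9 were highest in CPX 4, against 33.1% and 27.1% of all genes. CPX 4 exceeded CPX 6 by 3.43-fold (Dbt) to 9.999-fold (Hibch). Over the other 7 libraries the highest and lowest values of a gene were 1.48-fold (Bckdhb) to 2.39-fold (Bcat2) apart. There 8 genes were highest in EA 5, and each was lowest in EA 8 (6 genes) or MPX 5 (4 genes). The mean of the 10 centred log2 levels had an SD of 1.25 within CPX, 0.22 within MPX and 0.36 within EA. Bckdhb followed the mean of the other 9 most closely (SD of the difference 0.11 over 9 libraries) and Bcat2 least (0.43), with Hibch next (0.32).

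**Figure D4:**
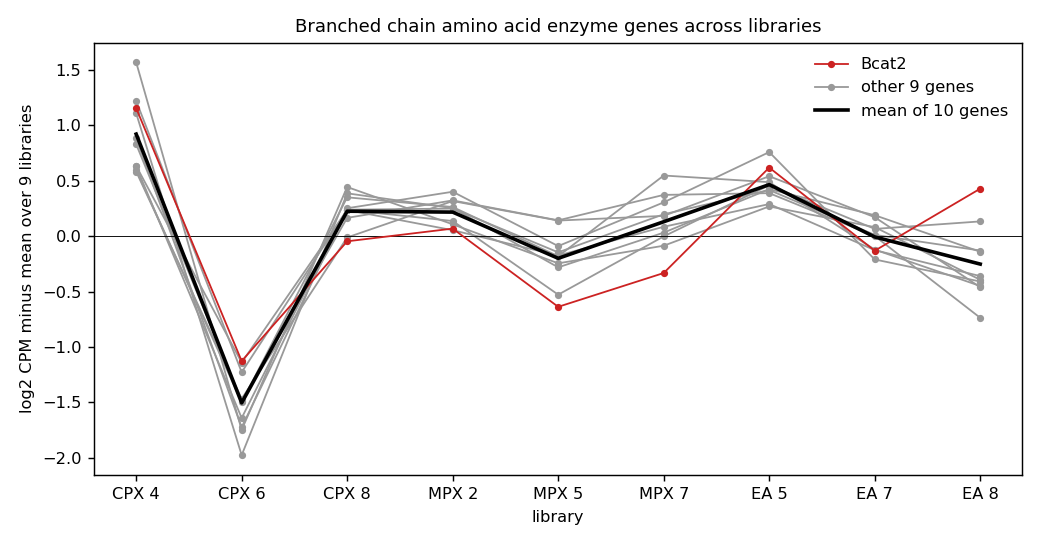
Log2 CPM of each enzyme gene minus its mean over the 9 libraries, by library, with Bcat2 in red, the other 9 genes in grey and their common mean in black; lines only join points of 1 gene. All 10 fall in CPX 6, and Bcat2 lies above the other 9 in EA 8.

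In EA 8, Bcat2 stood 0.76 above the mean of the other 9 genes on the centred log2 scale, and in CPX 6 0.42 above. In MPX 5 and MPX 7 it stood at -0.49 and -0.51. Its level relative to the others was lower in all 3 MPX libraries (-0.17 in MPX 2) than in any EA library (lowest -0.14, EA 7), though by a small margin. This relation was looked at after the values were seen and was not tested. Pccb went the other way, at -0.54 in EA 8 and 0.12 to 0.38 in MPX. Hibch departed most in CPX 4 (0.72), and Aldh6a1 in CPX 6 (-0.52).

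Proportions between partner genes were followed over the libraries, all of them per kilobase of gene length. The ratio of Pccb to Pcca, per kilobase, lay between 2.71 and 4.13 in the 9 libraries, and that of Bckdha to Bckdhb between 0.705 and 1.08. Mccc2, the partner of Mccc1, stood at 2.09 to 3.15 times Mccc1 per kilobase. By CPM it lay below Mccc1 in every library, since the lengths used are 2802 bases for Mccc2 and 10952 for Mccc1. Each of these 3 ratios spanned 1.51 to 1.54-fold. The ratio of Bcat2 to Bckdha spanned 3.18-fold, from 1.07 in MPX 5 to 3.40 in EA 8. It averaged 2.28 ± 0.470 in CPX, 1.30 ± 0.238 in MPX and 2.28 ± 1.00 in EA (SD, n = 3). The ratio of Dbt to Bckdha spanned 2.40-fold. All ratios with Bckdha, that of Bckdk included, carry the overlap of that gene with B3gnt8 given above, and their values are uncertain to that extent.

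By their means, adipocyte markers and enzyme genes were both highest in CPX 4 and lowest in CPX 6, but their courses over the other libraries were not parallel. Taken singly, 6 of the 14 markers were highest in CPX 4, 4 in MPX 5 and 4 in MPX 7 (27.1%, 13.4% and 4.9% of all genes). The mean centred log2 level of the 14 markers was 0.95 in CPX 4, -2.37 in CPX 6 and -0.50 in EA 8, where the enzyme genes stood at 0.92, -1.50 and -0.25. In MPX 5 the markers stood at 0.50 and the enzyme genes at -0.20. Between EA and MPX 12 of the 14 markers had negative differences (median -0.53), against 5 of the 10 enzyme genes. For MPX minus CPX 11 of the 14 were positive (median 0.69), and for EA minus CPX 7 of 14 (median -0.035). No marker was called by edgeR in a comparison (0% of all genes). The 8 B cell markers summed to 3615 CPM in CPX 6, 656 to 1942 CPM in EA and 18.6 to 54.7 CPM in the other 5 libraries, and their part in the results was not tested. In CPX 6 the enzyme genes were less reduced than the adipocyte markers and more reduced than the 16 citric acid cycle genes (-0.77). Relative to the adipocyte markers the enzyme genes stood at 0.23, -0.074 and 0.25 in EA 5, 7 and 8 and at -0.095, -0.70 and -0.41 in MPX 2, 5 and 7. EA thus lay above MPX in every library on this relative scale, by a narrow margin between EA 7 and MPX 2. This scale was looked at without a test, and no share over all genes was taken on it. The citric acid cycle genes stood in a similar relation to the markers. They lay below them in MPX 2, 5 and 7 (0.11, -0.11 and 0.13 against 0.31, 0.50 and 0.54). In EA 5 and 8 they lay above them (0.40 and -0.33 against 0.24 and -0.50), and in EA 7 below (-0.14 against 0.068). A low standing against the markers in MPX 5 and 7 was therefore not particular to the enzyme genes. The citric acid cycle genes did not separate EA from MPX in every library, since EA 7 lay about as far below the markers as MPX 2. The marker mean, used next as a covariate, comes from the same counts and was far lowest in CPX 6 (-2.37, against -0.50 to 0.95 elsewhere). Its slope therefore rests largely on that library. The marker mean was also higher in every MPX library (0.31 to 0.54) than in any EA library (-0.50 to 0.24). An adjusted EA minus MPX difference therefore depends on that slope, and group and marker level are not cleanly separated. The enzyme genes also moved together, so their unadjusted p-values are not independent. With the marker mean as a covariate in the fit, the median EA minus MPX difference moved from -0.012 to 0.34, with 9 of 10 positive (53.7% of all genes). In that fit 0 of 10 were called (1.09% of all genes; smallest edgeR adjusted p = 0.264, Dbt), and 4 of 10 had an unadjusted p under 0.05 (Bcat2, Dbt, Hibch and Aldh6a1; 14.6% of all genes). The same covariate moved the MPX minus CPX median from -0.11 to -0.38, with all 10 negative (48.6% of all genes were positive). There 0 of 10 were called (0.253% of all genes; smallest edgeR adjusted p = 0.109, Hibch), and 3 of 10 had an unadjusted p under 0.05 (Hibch, Hibadh and Aldh6a1; 22.1% of all genes). For EA minus CPX the median moved from -0.036 to 0.042, with 6 of 10 positive (50.4% of all genes), 0 called (2.02% of all genes) and 0 at an unadjusted p under 0.05 (21.4%). Relative to the citric acid cycle genes the groups overlapped, at 0.069 to 0.13 in EA and -0.09 to 0.11 in MPX.

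**Figure D5:**
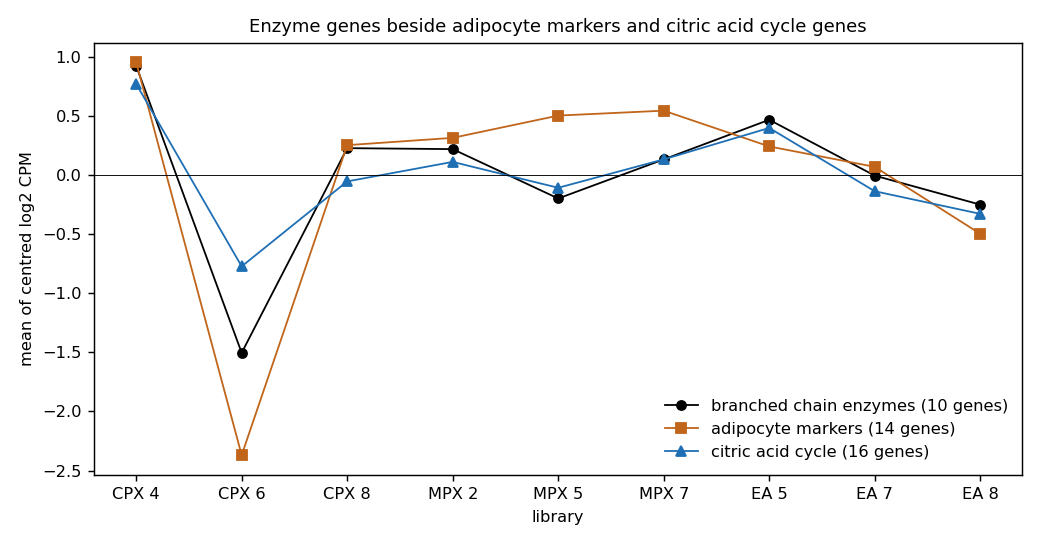
Mean centred log2 CPM by library of the 10 enzyme genes (circles), 14 adipocyte markers (squares) and 16 citric acid cycle genes (triangles); lines only join points of 1 list. All 3 lists are lowest in CPX 6, and in the MPX libraries the adipocyte markers lie above the enzyme genes.

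Of 28 further genes of the pathway, its transport and its control, 19 were in the table and the other 9 were not analysed here. They include Bckdk, the kinase that switches the dehydrogenase complex off, Dld, its lipoamide dehydrogenase, and Ivd and Mccc2 of the leucine branch. Acadsb, Hsd17b10 and Acat1 act on isoleucine products. EdgeR called 0 of the 19 in each comparison (0% of all genes). For EA minus MPX 6 were positive and 13 negative (51.4% of all genes were positive), with a median of -0.17 beside 0.012 over all genes. For MPX minus CPX 11 were positive and 8 negative (40.7% of all genes positive), with a median of 0.054 beside -0.11. For EA minus CPX 9 were positive and 10 negative (39.0% of all genes positive), with a median of -0.091 beside -0.093. Of the 19, 18 were lowest in CPX 6 (33.1% of all genes) and 14 highest in CPX 4 (27.1%). Bckdk ran from 61.4 CPM in CPX 6 to 139 CPM in CPX 4, a narrower span than any of the 10 enzyme genes. Its means were 82.5 ± 17.8 CPM for EA, 85.4 ± 8.09 CPM for MPX and 95.8 ± 39.4 CPM for CPX. Per kilobase, Bckdk was 0.528 (MPX 5) to 1.30 (CPX 6) times its target Bckdha, and the other 8 libraries reached at most 0.704. Dld stood at 227 ± 76.3 CPM for EA, 272 ± 13.9 CPM for MPX and 288 ± 160.4 CPM for CPX, and Ivd at 394 ± 113 CPM, 331 ± 69.6 CPM and 364 ± 188 CPM in the same order.

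Slc3a2, which encodes the heavy chain that carries large neutral amino acid transporters to the cell surface, followed another course and was singled out after its values were seen. It stood at 133 CPM in CPX 4, 162 in CPX 6 and 131 in CPX 8, 214, 301 and 226 CPM in MPX 2, 5 and 7, and 185, 181 and 173 CPM in EA 5, 7 and 8. It was the single gene of the 19 that was not lowest in CPX 6, and the single one with an unadjusted edgeR p under 0.05 in a comparison. The 3 groups did not overlap, with MPX highest, EA between and CPX lowest (among all genes, 19.0% lay below in EA against MPX, 8.46% above in MPX against CPX and 2.10% above in EA against CPX). Its mean was 247 ± 47.2 CPM for MPX and 142 ± 17.7 CPM for CPX, a log2 difference of 0.80 (SE 0.20). This did not pass edgeR's test (adjusted p = 0.362) but did pass DESeq2 (adjusted p = 0.0027). DESeq2 was the only fit run in which it passed (limma voom adjusted p = 0.483). For EA the mean of Slc3a2 was 179.8 ± 5.90 CPM, a difference of -0.46 from MPX (SE 0.20, edgeR adjusted p = 0.775).

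Outside the pathway lists, the 8 genes closest to the mean course of the enzyme genes were Csad, Aco1, Crat, Slc25a23, Gys1, Coq9, Mtus1 and Pgm2. Likeness was the root mean square difference between centred log2 levels over the 9 libraries, which for these genes was 0.096 to 0.15. Aco1 encodes the cytosolic aconitase, Crat carnitine acetyltransferase and Coq9 a factor of coenzyme Q synthesis. Csad acts in taurine synthesis and Gys1 is a glycogen synthase. Csad, the closest, had 444 CPM in CPX 4, 73.8 in CPX 6 and 186 to 287 CPM in the other 7 libraries. Among all 3958 genes Bckdhb ranked first in this likeness and Bcat2 at place 284, each of the 10 being itself part of the mean.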

How the data were processed

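RNA of 9 mouse adipose libraries was compared. HISAT2 2.0.5 aligned the reads to mm10, per the submitters' processing notes. How reads were counted, with which annotation and strand setting, is not given in the sources used here. The authors deposited raw counts for each gene and gene lengths. The table in hand holds the 3958 genes with the highest totals (at least 8471 counts) and breaks off in its last line; other genes were not analysed here. Titles tied columns to libraries, and 11 damaged gene names were restored by gene ID.

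EdgeR 4.0.16 (R 4.3.3) fitted all 9 libraries with a mean per group, TMM factors, filterByExpr (no gene removed) and robust quasi-likelihood F tests, adjusted after Benjamini-Hochberg over all genes (threshold 0.05). The biological coefficient of variation was 40.2%. An SE is the size of a difference over the root of its F value, and 95% intervals use the matching t quantile. Log2 CPM used a prior count of 2. Alternatives were RLE factors, column sums, no filter, DESeq2 1.42.0, limma 3.58.1 voom, only the groups compared, each library left out, an adipocyte covariate and library number as a block; leaving out CPX 4 and 6 was added after seeing the data. The method was tested on simulated data. Within groups no libraries were near identical (chi-square per degree of freedom at least 71.5). The enzyme genes and lists were chosen with earlier results of these data known. Named genes were the 10 enzymes, other pathway genes in list order, Slc3a2 and the 8 genes most alike in course. Coordinates are those of the deposited table and equal GENCODE M21 for all 10.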

Additional observations from a re-analysis of the deposited data

How the results depend on the processing

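No enzyme gene was called in any fit run (edgeR, DESeq2, limma voom, other scalings, no filter, fewer libraries, covariate or block), so the choices moved values and directions but no call. The block fit adds little to this, for the reasons given with it below. Directions held under every alternative run for 4 of 10 genes between EA and MPX (Bcat2, Dbt, Pccb, Aldh6a1), where the median SE was 0.53. They held for 0 of 10 between MPX and CPX and 0 of 10 between EA and CPX. Of the 4, Aldh6a1 moved to 0.0033 without MPX 5 and Pccb to -0.013 with the covariate, so their directions held only barely. Bcat2 was never below 0.433 and Dbt never below 0.135. The median EA minus MPX difference ran from -0.20 to 0.14 with 1 library left out, the MPX minus CPX median from -0.52 to 0.48 and the EA minus CPX median from -0.48 to 0.53. With RLE factors directions turned for EA minus MPX to -0.00069 (Bckdhb). With column sums only directions turned for EA minus MPX to 0.016 (Bckdha), 0.061 (Hibadh) and 0.0074 (Mccc1), and for MPX minus CPX to 0.18 (Bckdhb), and for EA minus CPX to 0.28 (Bckdhb), 0.24 (Pcca), 0.14 (Pccb) and 0.19 (Aldh6a1). With DESeq2 directions turned for EA minus MPX to -0.00067 (Bckdhb). With limma voom directions turned for EA minus MPX to -0.025 (Bckdhb), and for MPX minus CPX to 0.61 (Bckdhb) and 0.096 (Aldh6a1), and for EA minus CPX to 0.58 (Bckdhb), 0.15 (Pcca), 0.0088 (Pccb) and 0.26 (Aldh6a1). With only the groups compared directions turned for EA minus MPX to -0.022 (Bckdhb). With the adipocyte covariate directions turned for EA minus MPX to 0.20 (Bckdha), 0.30 (Hibadh), 0.24 (Mccc1) and 0.097 (Pcca), and for MPX minus CPX to -0.0096 (Bckdha), -0.12 (Mccc1), -0.15 (Pcca) and -0.15 (Pccb), and for EA minus CPX to 0.058 (Bckdhb) and 0.025 (Aldh6a1). With CPX 4 and 6 left out directions turned for EA minus MPX to -0.022 (Bckdhb), and for MPX minus CPX to -0.0082 (Mccc1) and -0.087 (Pcca), and for EA minus CPX to -0.014 (Dbt) and -0.11 (Mccc1). EA minus MPX ran from -0.17 to 0.12 (Bckdhb), -0.069 to 0.25 (Hibch), -0.23 to 0.10 (Hibadh), -0.53 to 0.13 (Mccc1) and -0.33 to 0.15 (Bckdha) when 1 library was left out. MPX minus CPX ran from -0.95 to 0.25 (Bcat2), -0.49 to 0.57 (Bckdhb), -0.56 to 0.22 (Dbt), -1.18 to 0.23 (Hibch), -0.82 to 0.34 (Hibadh), -0.78 to 0.40 (Aldh6a1), -0.10 to 0.81 (Bckdha), -0.23 to 0.65 (Mccc1), -0.24 to 0.57 (Pcca) and -0.25 to 0.75 (Pccb) when 1 library was left out. EA minus CPX ran from -0.49 to 0.55 (Bckdhb), -1.11 to 0.28 (Hibch), -0.86 to 0.28 (Hibadh), -0.47 to 0.32 (Pcca), -0.59 to 0.39 (Pccb), -0.63 to 0.53 (Aldh6a1), -0.35 to 0.83 (Bcat2), -0.19 to 0.71 (Bckdha), -0.23 to 0.52 (Dbt) and -0.33 to 0.55 (Mccc1) when 1 library was left out. With column sums the enzyme medians were 0.081, 0.088 and 0.26 for EA minus MPX, MPX minus CPX and EA minus CPX, beside 0.11, 0.0018 and 0.10 over all genes. Without CPX 4 and 6 the CPX group is the single library CPX 8, which is assumed to vary like the other groups. The count of all genes called, 0 in each comparison, became 84 for EA minus MPX with only the groups compared, 49 with DESeq2, 43 with the covariate, 80 with CPX 4 and 6 left out and 23 without CPX 6. For MPX minus CPX it became 201 with DESeq2, 168 without CPX 8 and 10 with the covariate, and for EA minus CPX 5 with DESeq2, 80 with the covariate and 12 without CPX 6. The unfiltered fit equals the reported one, since the filter removed no gene.

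Libraries of different groups share some numbers (5 and 7 in MPX and EA, 8 in CPX and EA). The deviations of same-numbered libraries from their group means correlated at 0.022, 0.13 and -0.51 across genes. The labels do not say what the number stands for, and whether such libraries share more than a number was not tested. In a block fit MPX 2, CPX 4 and CPX 6, whose numbers occur once, do not bear on any difference. EA minus CPX then rests on EA 8 and CPX 8 alone, and EA minus MPX on libraries 5 and 7. MPX minus CPX only joins these through EA. Such a fit holds nearly as many terms as libraries, so little spread is left to test against. With number as a block the medians were 0.19, -0.76 and -0.56 in the 3 comparisons, and directions turned for EA minus MPX to 0.19 (Bckdha), 0.13 (Hibadh) and 0.17 (Mccc1), and for MPX minus CPX to -0.64 (Bckdha), -0.83 (Mccc1), -0.80 (Pcca) and -0.84 (Pccb), and for EA minus CPX to -0.45 (Bckdha), -0.10 (Dbt) and -0.66 (Mccc1). The block called 6 genes for EA minus MPX, 0 of them an enzyme gene.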
